A study of Canis lupus familiaris with 22 samples.

Results

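Olfactory receptor genes were examined in the blood of dogs, a tissue in which most of them are not known to be used. The members were all non-control probes of the array whose description names an olfactory receptor, which gave 315 probes for 298 gene names, out of 43603 probes for 34382 gene names. In all, 22 arrays of 3 groups were analyzed. The group ctrl held 8 healthy dogs, the group before ASIT held 7 dogs with canine atopic dermatitis (cAD) sampled ahead of allergen-specific immunotherapy, and the group after ASIT held the same 7 dogs following 6 months of that therapy. Ages are not in the labels. The labels name whole blood as the material and the methods name peripheral blood nuclear cells.

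Both dyes were read on each array. RNA from the dog carried Cy5, the common reference RNA, a pool of 13 healthy dogs outside the 3 groups, carried Cy3, and no array had the dyes exchanged. The ctrl arrays lay on slides 1 and 2, and the patient arrays on slides 3 to 6, so that cAD cannot be told apart from slide or scan in any comparison with ctrl. Slides 3 and 4 held arrays from before and after ASIT, slide 5 held only dogs 5 to 7 before and slide 6 only dogs 4 to 7 after ASIT, so that before against after ASIT also differed by slide for most dogs. Slide 3 held both arrays of dogs 1 and 2 and differed from the other patient slides in the share of probes detected, so results are given with and without it. The number of arrays, their slides and the low signal over background limit the precision. In bulk blood, fewer cells of a type and less RNA per cell cannot be told apart.

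Olfactory receptors are G protein-coupled receptors and form one of the largest gene families of mammals. A mature olfactory neuron of the nose uses a single receptor gene, and its receptor acts through the G protein subunit encoded by GNAL, the adenylate cyclase encoded by ADCY3 and a cyclic nucleotide-gated channel built from CNGA2, CNGA4 and CNGB1. Receptors of families 51 to 56 are called class I and the others class II. A few receptors have been described outside the nose, and blood is a tissue in which little of the family is known to be made. The members' own family could be read for 272 probes, of which 57 were class I and 215 class II.

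All members were 60 bases long, and 310 of them were placed on canFam3.1 by the files, 66 on chromosome 21, 64 on chromosome 18 and 29 on chromosome 20. RefSeq (assembly UU_Cfam_GSD_1.0, used for names alone) gave a current symbol for 209 probes. No annotation of canFam3.1 was used here, so that exon or UTR positions are not given. The sequences of 7 of these probes are printed from the array files, since the detected signal, the contrasts and the shared end of the receptors turn on them. Capitals mark the codons of NPxxY, the conserved motif near the end of the last transmembrane segment of these receptors. The first 3 were among those detected in both dyes on all arrays, and the last 4 came from the contrasts between groups.
cOR52S3, chr21:27558507-27558566, minus strand: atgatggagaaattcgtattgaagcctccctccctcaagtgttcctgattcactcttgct
LOC100688470 (OR51A21), chr21:27045705-27045764, minus strand: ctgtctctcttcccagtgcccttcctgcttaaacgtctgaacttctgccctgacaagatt
cOR56B2, chr21:28903519-28903578, plus strand: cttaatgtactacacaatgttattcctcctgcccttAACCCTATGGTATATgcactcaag
LOC491671 (OR2V1), chr11:340668-340727, minus strand: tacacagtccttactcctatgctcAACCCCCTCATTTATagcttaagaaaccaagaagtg
OR51Q1, chr21:28363061-28363120, plus strand: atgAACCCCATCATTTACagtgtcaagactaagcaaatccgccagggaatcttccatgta
LOC484859 (OR10H4C), chr20:46507601-46507660, minus strand: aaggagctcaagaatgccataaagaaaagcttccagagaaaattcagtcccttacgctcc
OR10A12 (OR7A58 in RefSeq), chr20:47542125-47542184, plus strand: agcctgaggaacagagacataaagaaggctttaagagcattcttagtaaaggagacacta

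The codons of NPxxY, searched on the printed strand in its 3 frames and spanning 15 bases, were found in 37 member probes (11.7%) and in 148 other probes (0.342%). The printed probes of cOR52S3, LOC484859 and OR10A12 are among those without them. Of the members, 20 shared at least 45 identical bases with a probe of another gene, 12 of them with another member, and no member was identical to a probe of another gene. For these 20 members, the signal may come in part from the similar transcript, which was not tested.

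Olfactory receptor probes were detected less often than the other probes on each of the 22 arrays. A probe counts as detected here where the scanner software marked its signal as well above background. In Cy5, 60.6% to 76.5% of the receptor probes were detected on the ctrl arrays (median 70.5%), 16.2% to 68.6% before ASIT (median 22.5%) and 21.9% to 61.0% after ASIT (median 26.7%). Of all other probes, 83.8% to 92.4% were detected in ctrl, 53.6% to 87.6% before and 57.4% to 81.8% after ASIT. The receptor probes were below the others by 14.2 to 24.3 percentage points in ctrl, by 19.03 to 46.1 before ASIT and by 19.98 to 41.1 after ASIT.

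The arrays of slide 3 set the upper end of both patient groups. The share there was 28.9% to 68.6%, and on the 10 patient arrays of the other slides it was 16.2% to 28.3% (median 22.9%), below each ctrl array. The common reference, which is the same RNA on each array, moved alike. In Cy3, 49.8% to 67.0% of the receptor probes were detected on the ctrl arrays (median 54.4%), 14.6% to 46.7% before ASIT and 14.3% to 54.3% after ASIT. Off slide 3 the share in Cy3 was 14.3% to 21.6% on the patient arrays. A lower share of detected receptor probes on patient arrays was thus measured in the reference RNA too, and the part of the arrays in the difference between dogs cannot be told apart from that of cAD.

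**Figure D1:**
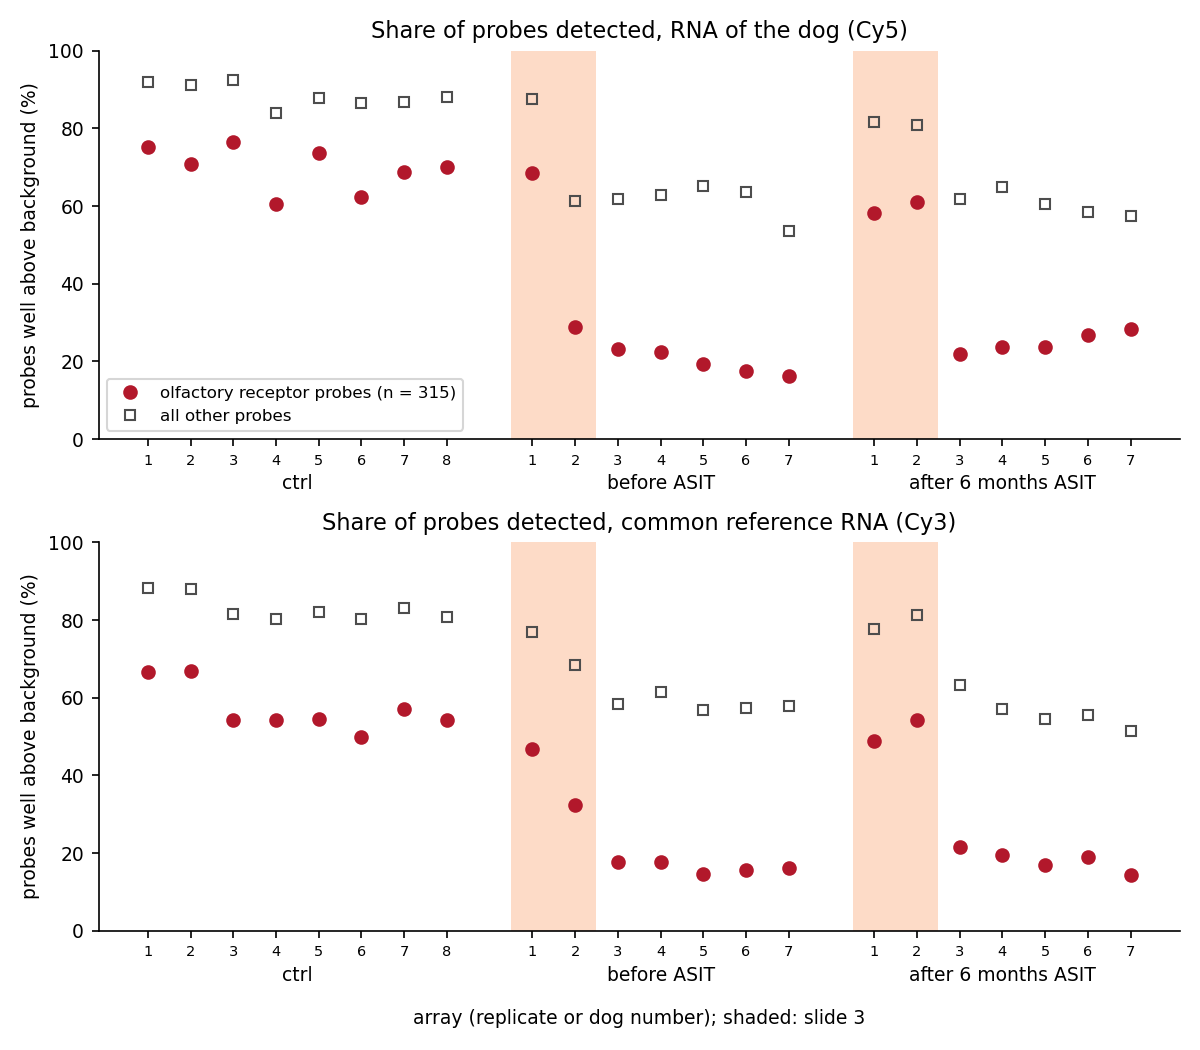
Share of probes well above background (%, y axis) on each array (x axis, replicate or dog number within the group) for the 315 olfactory receptor probes (filled circles) and all other probes (open squares), in Cy5 (top) and Cy3 (bottom), with the arrays of slide 3 shaded. The receptor probes lie below the other probes on each array, and on the patient arrays off slide 3, 16.2% to 28.3% of the receptor probes were detected in Cy5.

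The signal of the typical receptor probe stood little above its surroundings on the patient arrays off slide 3, and higher on the ctrl arrays. The median Cy5 signal over the local background was 2.13 to 2.62 in ctrl (median 2.23), 1.20 to 2.28 before ASIT (median 1.24) and 1.12 to 2.10 after ASIT (median 1.17). Negative control spots, which match no transcript, had a median of 1.27 to 1.41 in ctrl, 1.11 to 1.40 before and 1.03 to 1.37 after ASIT. Set against the 153 negative control spots of the same array, the receptor probes were 1.59 to 1.83 times as bright in ctrl and 1.03 to 1.13 times as bright on the 10 patient arrays off slide 3. In Cy3 the same ratio was 1.28 to 1.39 in ctrl and 1.07 to 1.12 on these 10 arrays. The 95th percentile of the negative controls in Cy5 was exceeded by 91.43% to 97.78% of the receptor probes in ctrl and by 35.87% to 71.75% (median 50.16%) on these 10 arrays. In Cy3 the shares were 83.49% to 93.97% and 45.71% to 70.16% (median 59.37%).

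**Figure D2:**
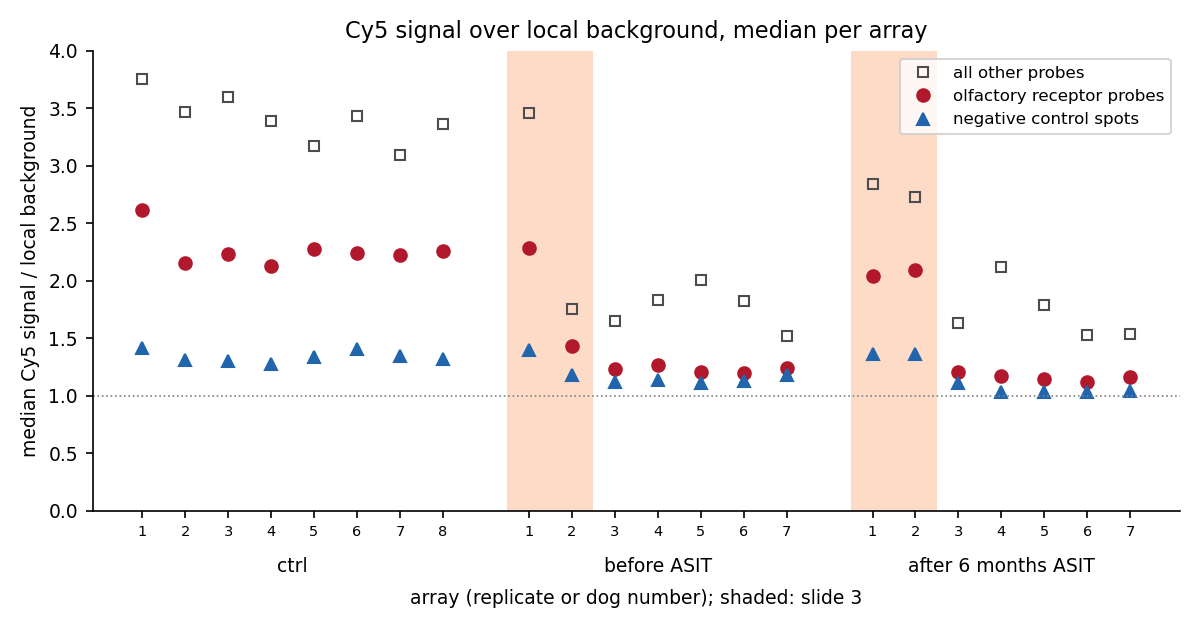
Median Cy5 signal divided by the local background (y axis, ratio) on each array (x axis, replicate or dog number) for all other probes (open squares), olfactory receptor probes (circles) and negative control spots (triangles), with slide 3 shaded and the dotted line at a ratio of 1. The receptor probes lie between the other probes and the negative controls, and come close to the latter on the patient arrays off slide 3, at 1.12 to 1.27.

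Over the 22 arrays, the mean Cy5 signal over local background (geometric mean) ran from 1.19 to 111.3 among the members, with quartiles of 1.45, 1.65 and 1.96. It was above 2 for 72 members, above 4 for 19 and above 16 for 2. The 3 members nearest to the middle of the family were LOC100683428 (OR6C89), OR4P4 and OR6V1. For OR6V1 the Cy5 signal was 1.93, 2.20 and 2.56 times the local background in ctrl (lowest, median and highest of 8), 1.17, 1.23 and 2.25 before ASIT and 1.17, 1.22 and 2.36 after ASIT. It was well above background on 7 ctrl arrays, 1 array before and 2 after ASIT, and its groups overlapped.

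Detection fell into a few patterns. Cy5 was well above background on all 22 arrays for 44 receptor probes (13.97%, against 48.0% of the other probes) and on no array for 42 (13.3%, against 4.00%). Exactly 11 arrays detected 59 members (18.7%, against 8.74%), and 54 of these were seen on the 8 ctrl arrays and on the 3 arrays of slide 3 other than that of dog 2 before ASIT (17.1%, against 7.89%). All ctrl arrays detected 167 members (53.0%, against 79.0%). No receptor probe was detected on all ctrl arrays and on no patient array, a pattern that was as rare among the other probes (0.03%). A larger share of patient arrays than of ctrl arrays detected 15 members (4.76%, against 1.5%). In the reference channel 38 members were detected on all arrays (12.1%, against 48.9%) and 79 on none (25.1%, against 7.92%). Both channels were well above background on all arrays for 38 members (12.1%, against 46.0%).

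**Figure D3:**
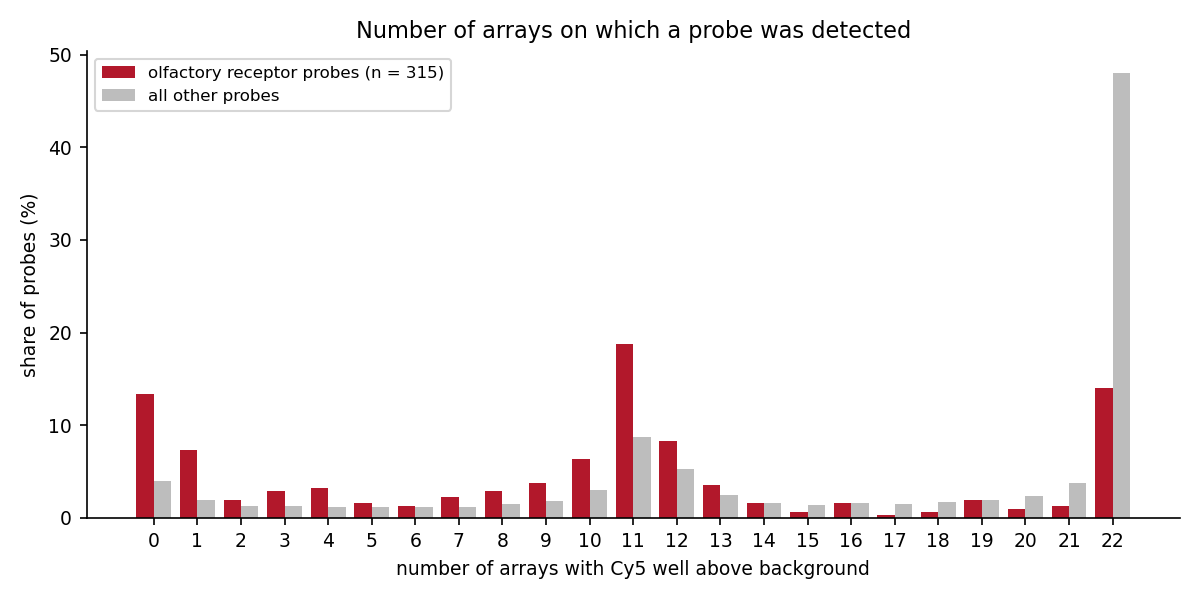
Share of probes (%, y axis) by the number of arrays, of 22, on which Cy5 was well above background (x axis), for the 315 olfactory receptor probes (dark bars) and all other probes (light bars). The receptor probes gather at 0 arrays (13.3%), at 11 arrays (18.7%) and at 22 arrays (13.97%), and the other probes mostly at 22 (48.0%).

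The members seen on all arrays were spread over the family. Both channels were above background throughout for 9 of 57 class I probes (15.8%) and 22 of 215 class II probes (10.2%), for 9 of 66 probes on chromosome 21, 5 of 64 on chromosome 18 and 5 of 29 on chromosome 20. By base composition, they were 1 of 64 probes with a GC content under 40% and 17 of 37 probes (45.9%) with 50% or more. Across the 315 probes, the mean log2 Cy5 signal over background went with the GC content of the probe (Pearson's r = 0.350, Spearman's rho = 0.341) and with the same measure in Cy3 (r = 0.986, rho = 0.957). These are descriptions across probes that share arrays. The receptor cluster of chromosome 21 surrounds the β-globin genes, whose transcripts fill red cells. Of the 13 receptor probes within 500 kb of a β-globin-like probe (LOC609402, chr21:28182446-28182505), 1 was detected in both channels on all arrays, and so were 8 of the 53 probes of that chromosome further away.

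Of the members detected throughout, cOR52S3, of class I, lay far above its local background. Its Cy5 signal was 112, 136 and 190 times the local background in ctrl (lowest, median and highest), 67.2, 96.4 and 160 before ASIT and 82.1, 94.8 and 155 after ASIT. The log2 ratio of Cy5 to Cy3, that is of the dog to the reference, was -0.33 to 0.34 in ctrl, -0.54 to 0.64 before and -0.27 to 0.39 after ASIT. The groups overlapped, and before ASIT minus ctrl was -0.05 (SE 0.17, limma adjusted p = 0.943). The probe was thus well above background both in the dogs and in the reference, with a ratio near 0 in each group.

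LOC100688470, RefSeq's OR51A21 and also of class I, had a Cy5 signal of 38.0, 45.3 and 59.2 times the local background in ctrl, 12.3, 22.6 and 39.5 before and 16.9, 43.2 and 90.2 after ASIT. Its log2 ratio was -0.08 to 0.55 in ctrl, -0.47 to -0.03 before ASIT and -0.23 to 0.25 after ASIT. The arrays before ASIT were mostly below those of ctrl, with an overlap. The difference was -0.32 (SE 0.13), with p = 0.000777 in a 2-sided exact permutation test, where 0.000155 is the smallest p the design allows, and a limma adjusted p = 0.289, so the call fails the correction over all probes. The 10 members named by signal gave 30 such exact tests, 2 with p under 0.05, and the 3 at the middle of the family gave 1 of 9. The members in the study's list gave 8 of 12, but that list was chosen for differences on these same samples. All 35 named probes gave 31 of 105, where those named by contrast were chosen for a small p. The last 2 counts are therefore no evidence of a difference.

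The other members named for their signal were NP864057, LOC100687372 (OR1L8), cOR1P2, NP864053, ENSCAFT00000009839, NP864079, cOR56B2 and OR2Z1. The 5 members LOC100687372, NP864053, NP864079, cOR56B2 and OR2Z1 had ratios that moved together over the 22 arrays, with r from 0.931 to 0.989 between any pair of them. They were picked for this after their values were seen, and the median over all pairs of the 38 members detected throughout in both channels was 0.381. For NP864053 the log2 ratio was -1.32, -0.08 and 0.85 in ctrl (lowest, median and highest), -1.26, 0.70 and 1.59 before ASIT and -1.12, 0.99 and 1.75 after ASIT. Low and high arrays occurred in each group, and all 3 groups overlapped. After ASIT minus ctrl was 1.05 (SE 0.45, limma adjusted p = 0.681).

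The ratios of these members also moved with the base composition of the array's other probes. For each array, the median log2 ratio of 3693 GC-rich probes (55% or more) of other genes was set against that of 10023 GC-poor ones (under 45%), all above background in both channels on all arrays. This GC contrast was -0.16 to 0.64 in ctrl, -0.40 to 0.72 before ASIT and -0.38 to 0.75 after ASIT. Over the 22 arrays, which came from 15 dogs and are not independent, it went with the log2 ratio of cOR1P2 (r = 0.938, rho = 0.953, and r = 0.934 without the 2 arrays of most extreme contrast) and of cOR56B2 (r = 0.915, rho = 0.916, and r = 0.881). Within the groups, r for cOR56B2 was 0.963 in ctrl, 0.897 before and 0.934 after ASIT. Of the 38 members detected throughout in both channels, 22 (57.9%) had r above 0.5, against 20.3% of the 19906 other probes detected alike. LOC474791 went the other way (r = -0.803), with 7 other members also below 0. The 19906 probes include the 3693 and 10023 that define the contrast, and they were not matched to the members for GC content. The gap between the 2 shares was thus set in part by the way the contrast was built, and nothing is drawn from it. Among the members, r was above 0.5 for 12 of 17 with a GC content of 50% or more and for 10 of 21 with less, and below 0 for 1 and 7 of them. The part of the GC contrast in differences between dogs was not tested.

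Receptors with described roles outside the nose were detected on some arrays or none. OR51E1, a class I receptor of fatty acids, was well above background on 8 ctrl arrays, 1 array before and 2 after ASIT, with a Cy5 signal of 2.15, 2.24 and 2.60 times the local background in ctrl, 1.05, 1.15 and 2.25 before and 1.04, 1.17 and 2.15 after ASIT. OR51E2, its relative, was detected on 0 arrays of ctrl, 0 before and 3 after ASIT, and on none in Cy3. Its Cy5 signal was 1.43, 1.62 and 1.77 times the local background in ctrl, 1.09, 1.26 and 1.71 before and 1.102, 1.43 and 1.59 after ASIT, and the groups overlapped. OR51E2 was not tested in the fit. OR1A1 was detected on 6 arrays, OR6A2 on 1 and OR10J5 on none, and the 5 probes gave 0 of 15 exact tests with p under 0.05.

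The signalling partners of the receptors were detected in ctrl at about the share of all other probes, and at a lower median share than these before and after ASIT. Of the 15 partner genes, 10 had a probe, 13 probes in all, and 2 of these probes (15.4%, against 48.0% of all other probes) were detected in Cy5 on all arrays. The share detected was 69.2% to 100% in ctrl (median 88.5%), 23.1% to 84.6% before (median 30.8%) and 30.8% to 84.6% after ASIT (median 38.5%), where the medians of all other probes were 87.95%, 62.8% and 61.9%, and no partner probe was undetected on all arrays. GNAL was detected on 11 arrays, the channel subunits CNGA2 and CNGA4 on 10 each, the receptor transporter RTP1 on 11 and the G protein subunit GNG13 on 11. ADCY3 had one probe on all 22 arrays and another on 4, and the GNAL chaperone RIC8B had probes on 22 and 21 arrays, both genes being in use in many tissues. The taste receptors, another sensory family, showed 55% to 75% of their 20 probes in ctrl, 10% to 60% before and 15% to 55% after ASIT. The blood markers were detected on all 22 arrays by each probe for T cells (6), B cells (4), neutrophils and monocytes (11), platelets (4) and PTPRC (2), and by 2 of 3 erythroid probes. Of the 7 epidermal keratin probes, 4 were detected on all arrays too.

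Where neither channel was above background, the deposited ratio was often exactly 0. Of 6930 ratios of receptor probes, 1728 were 0, and in 0 of these was a channel well above background. Their share per array was 5.71%, 9.37% and 12.7% in ctrl (lowest, median and highest), 12.4%, 33.7% and 46.0% before ASIT and 15.2%, 43.5% and 47.3% after ASIT. Among the other probes it was 1.18% to 3.29%, 2.92% to 16.4% and 2.98% to 23.2%. A ratio of 0 here is a value set by the software and no measure of equal expression.

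Taken over all receptor probes, zeros included, the ratios had a higher median spread on patient arrays than in ctrl, as did those of the other probes. The median log2 ratio was -0.03, 0.03 and 0.31 in ctrl, 0, 0 and 0.12 before and 0, 0 and 0.33 after ASIT. The SD over receptor probes was 0.45, 0.48 and 0.64 in ctrl, 0.55, 0.80 and 0.89 before and 0.44, 0.64 and 0.94 after ASIT. Over the other probes it was 0.39, 0.44 and 0.60 in ctrl, 0.52, 0.75 and 0.83 before and 0.48, 0.66 and 0.73 after ASIT. Between dogs of a group, the SD of a tested receptor probe had a median of 0.317 in ctrl, 0.665 before and 0.544 after ASIT, and over all tested probes it was 0.298, 0.518 and 0.443. For the members detected in both channels on all arrays, it was 0.394, 0.483 and 0.412, and for all probes detected alike 0.309, 0.391 and 0.343.

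**Figure D4:**
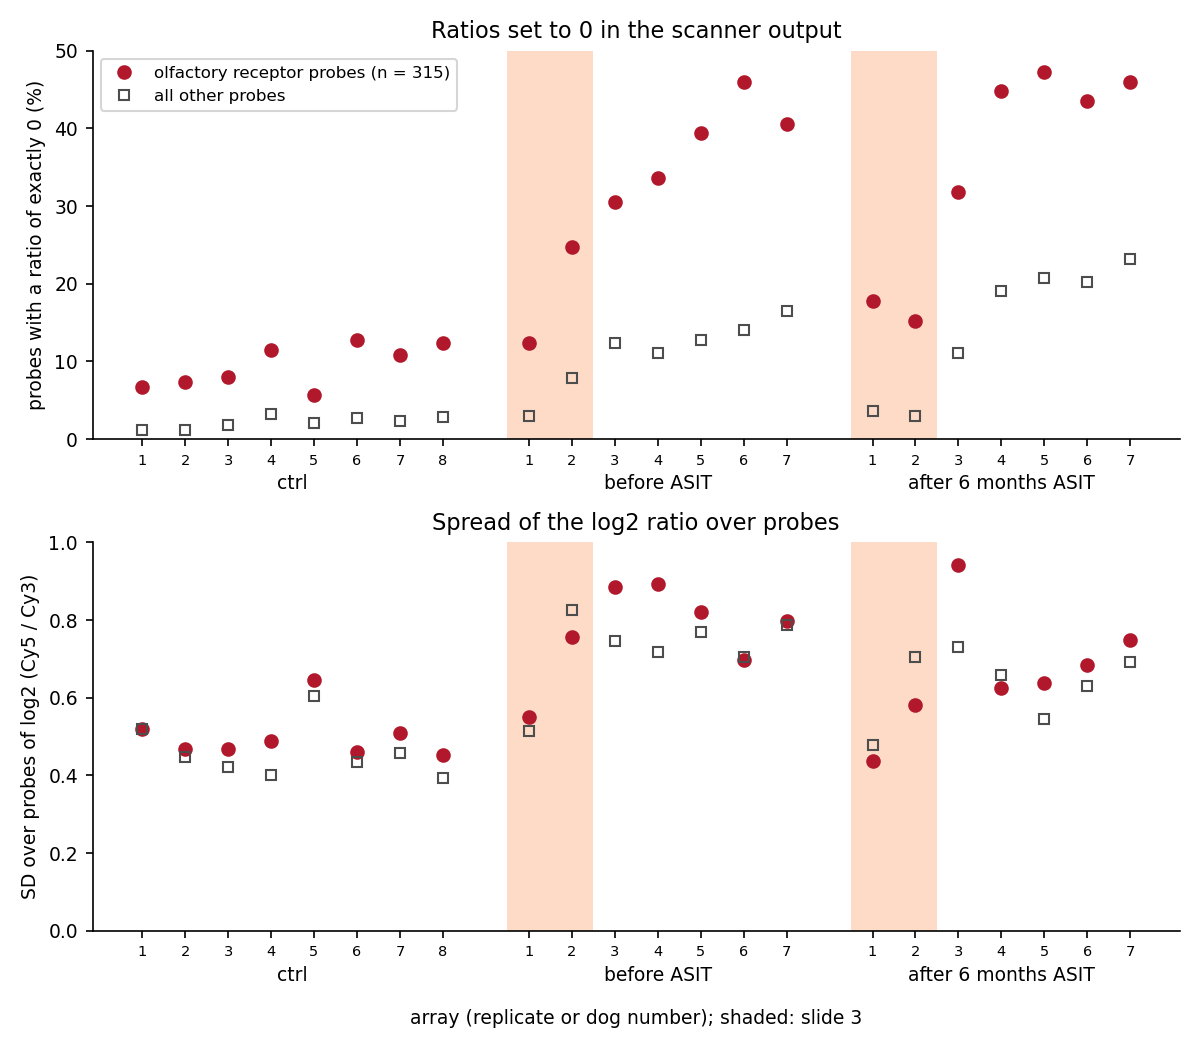
Share of probes with a deposited ratio of exactly 0 (%, top) and SD over probes of the log2 ratio of Cy5 to Cy3 (bottom) on each array (x axis, replicate or dog number, slide 3 shaded), for olfactory receptor probes (filled circles) and all other probes (open squares). The receptor probes have more zeros than the other probes on each array, up to 47.3%, and an SD of up to 0.94 on the patient arrays.

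The main test called next to no probe of any kind, and no olfactory receptor probe among them. Of the 315 members, 216 passed the filter of a Cy5 signal above background on 7 or more arrays and were tested among 38286 probes with limma, at a Benjamini-Hochberg adjusted p under 0.05, and the other 99 were not. Of the 216, 147 were above background on fewer than 7 patient arrays and so passed with the help of ctrl arrays. Before ASIT against ctrl, 0 of 216 receptor probes were called, as against 0.0418% of all tested probes. After ASIT against ctrl, before against after ASIT and over the 3 groups, 0 were called, and the share over all probes was 0% in each. The count of 0 is thus at the share of all probes and is not particular to the receptors. The smallest adjusted p of a receptor probe was 0.113, 0.512, 0.182 and 0.175 in these 4 comparisons. The methods' one-way test with the same adjustment called 0 of all probes, members included, in each, and 19 (8.8%, against 6.45% of all), 5 (2.31%, against 2.83%), 11 (5.09%, against 2.60%) and 30 members (13.9%, against 9.46%) had an unadjusted p under 0.05. With no filter, limma called 1 of the 315 members, cOR11J3, before ASIT against ctrl (0.0390% of all) and over the 3 groups (0.0573% of all).

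At an unadjusted limma p under 0.05, the share of members exceeded that of all probes in each direction but one, lower after ASIT than in ctrl. With normexp background correction and loess it was below that of all probes in 4 of 6 directions. Of the 216 tested members, 147 passed the filter with the help of ctrl arrays, so that nothing on the family is drawn from these shares. By the main ratios, before ASIT against ctrl, 14 were higher (6.48%, against 3.81% of all tested probes) and 22 lower (10.2%, against 7.93%). After ASIT against ctrl, 16 were higher (7.41%, against 4.09%) and 2 lower (0.926%, against 3.11%). Before against after ASIT, 6 were higher before (2.78%, against 2.15%) and 21 lower before (9.72%, against 3.81%). Over the 3 groups the count was 31 (14.4%, against 9.70%). The 3 comparisons share arrays. With normexp and loess, the shares higher and lower were 2.31% and 5.56% before ASIT against ctrl (3.30% and 4.61% of all tested probes), 0.926% and 0.926% after ASIT against ctrl (1.49% and 2.71%), and 0% and 2.78% before against after ASIT (1.49% and 1.54%). By the main ratios, the median difference of the tested members was -0.07, 0.01 and -0.14 on the log2 scale in the order above, and that of all tested probes was -0.02, -0.04 and -0.01. With each dog as a replicate block, before against after ASIT gave 0 called probes of any kind and 28 receptor probes at an unadjusted p under 0.05 (13.0%, against 6.56% of all tested probes). Since 4 of the 7 dogs changed slide between the time points, the slide was also taken into account. This count was then 21 (9.72%, against 4.25% of all) with the slide as a random block and 9 (4.17%, against 2.00%) as a fixed block. The fixed-block difference rests on slides 3 and 4 alone, since slide 5 held only arrays from before and slide 6 only arrays from after ASIT. The count was 8 (3.7%, against 3.97%) in dogs 1 to 3, whose arrays share a slide, with the dog block. Among the 38 members detected in both channels on all arrays the count was 0 (against 2.06% of all probes detected alike). With the GC contrast of each array as a covariate, 0 were called in each comparison (0.0731%, 0%, 0% and 0% of all), and 43 (19.91%, against 17.06% of all), 26 (12.04%, against 10.96%), 32 (14.81%, against 7.862%) and 41 (18.98%, against 14.98%) had an unadjusted p under 0.05.

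Each dye taken alone gave another picture. In Cy5 alone, 172 receptor probes (79.6%) were called before ASIT against ctrl and 136 (63.0%) after ASIT against ctrl, all lower in the patients, where 45.1% and 41.0% of all tested probes were called. In Cy3 alone, which holds the same reference RNA on each array, 194 (89.8%, against 64.0% of all) and 160 (74.1%, against 57.0%) were called, 192 and 157 of them lower on the patient arrays. Over the 3 groups, 167 (77.3%, against 46.4% of all) were called in Cy5 and 195 (90.3%, against 68.0%) in Cy3. Since 147 of the 216 probes passed the filter only with the help of ctrl arrays, where their Cy5 signal is high, the direction of these counts was set in part by the filter, and nothing on the family is drawn from them. Unscaled, the median Cy3 signal over local background was 2.00, 2.16 and 2.34 in ctrl, 1.83, 2.19 and 2.25 before and 1.16, 1.25 and 2.20 after ASIT, a median before ASIT no lower than that in ctrl. Negative control spots in Cy3 stood at 1.55 to 1.70 in ctrl, 1.53 to 2.05 before and 1.07 to 1.96 after ASIT.

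The counts depended on slide 3. Without its 4 arrays, 16 members were called before ASIT against ctrl (7.41%, against 4.18% of all tested probes), 4 higher and 12 lower, with 0 after ASIT against ctrl (0.504% of all) and 4 before against after ASIT (1.85%, against 0.559%). Over the 3 groups, 15 were called without slide 3 (6.94%, against 3.51%). Without the array of dog 1 before ASIT alone, 6 were called before ASIT against ctrl (1.15% of all), and without that of dog 2 before ASIT 2 were called (0.353%). Without the array of dog 3 after ASIT, 2 were called before ASIT against ctrl (0.240%) and 1 before against after ASIT (0.246%). The remaining arrays left the count at 0 when each was taken out.

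The named members of the contrast before ASIT against ctrl were those with the smallest unadjusted p in each direction. With normexp and loess, the 18 differences named in the 3 contrasts were 0.0064 to 0.15 in size on the log2 scale, as against 0.45 to 1.76 with the deposited ratios, which are given here. Of the 3 that were higher before ASIT, LOC491671, RefSeq's OR2V1, had log2 ratios of -0.59, 0.07 and 0.36 in ctrl (lowest, median and highest), 0.32, 0.70 and 1.35 before ASIT and -0.86, 0.03 and 0.56 after ASIT. The values before ASIT overlapped with ctrl at one end only. The difference from ctrl was 0.76 (SE 0.21, limma adjusted p = 0.149) and that from after ASIT was 0.92 (SE 0.21, adjusted p = 0.182), with 6 of 7 dogs higher before. With the slide as a fixed block the latter was 0.31. Without slide 3 the differences were 0.92 (adjusted p = 0.0124) and 1.28 (adjusted p = 0.0112). Cy5 was well above background on 8 ctrl arrays but on 2 before and 3 after ASIT, so that the probe passed the filter with the help of ctrl arrays. Most of its patient ratios come from spots not above background. Its differences, with and without slide 3, are thus no measured folds.

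LOC100856698, RefSeq's OR4A33, had log2 ratios of -0.19 to 1.499 in ctrl, 1.26 to 3.39 before and 0.00 to 2.37 after ASIT, with a difference before ASIT of 1.5 (SE 0.36, adjusted p = 0.113). OR4X2 had 0.58 to 2.54 before ASIT against -0.16 to 0.68 in ctrl, a difference of 1.19 (SE 0.34, adjusted p = 0.168). The groups overlapped for both. Their Cy5 signal over local background was lower before ASIT than in ctrl at the median, 1.48 against 2.28 for LOC100856698 and 1.51 against 5.03 for OR4X2, while their ratios were higher.

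The 3 members named in the other direction were read from dim spots in the patients. Each was well above background in Cy5 on 8 ctrl arrays but on 1 of 7 before ASIT, and so passed the filter through ctrl. Their ratios before ASIT rest mostly on spots not above background, and their differences are no measured folds. OR10A12 had log2 ratios of -0.32, -0.06 and 0.26 in ctrl, -2.11, -0.80 and -0.34 before ASIT and -1.64, 0 and 0.43 after ASIT. The difference of the ratios was -1.09 (SE 0.28, limma adjusted p = 0.129). LOC484859, RefSeq's OR10H4C, had -0.44, -0.19 and 0.27 in ctrl and -2.78, -1.74 and -0.43 before ASIT, with a narrow overlap and a difference of -1.30 (SE 0.32, adjusted p = 0.115). OR51Q1, of class I, had -0.23 to 1.09 in ctrl and -1.50 to 0.05 before ASIT, a difference of -0.84 (SE 0.21, adjusted p = 0.123). The first 2 were printed above without NPxxY codons, and that of OR51Q1 holds them near its start.

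After ASIT against ctrl, the named members were no nearer to a call. NP883375 had log2 ratios of -0.13, 0.39 and 0.62 in ctrl and 0.63, 1.71 and 2.74 after ASIT, and 0.10 to 2.86 before ASIT. The difference was 1.45 (SE 0.34, limma adjusted p = 0.512), with Cy5 well above background on 7 ctrl arrays and 2 after ASIT, so that most of the ratios after ASIT come from spots not above background. LOC483609 and LOC483486 (OR6Q1) had differences of 0.87 (adjusted p = 0.646) and 0.79 (adjusted p = 0.658), and the former was -0.0064 with normexp background correction and loess. COR56A6, LOC489317 and LOC610547, the 3 named lower, had no array after ASIT with Cy5 marked as above background. No fold is given for them, and the adjusted p of the ratio was 0.602, 0.681 and 0.681.

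Before against after ASIT, LOC491212 (OR3A1) was higher before ASIT in 7 of 7 dogs. Its log2 ratios were -0.59, 1.18 and 4.27 before and -1.87, -0.85 and 0.50 after ASIT, with overlap, and -0.12 to 0.43 in ctrl. The difference was 1.76 (SE 0.49, limma adjusted p = 0.339). An exact sign-flip permutation test within dogs gave p = 0.0156, the smallest that 7 dogs allow, for a probe named for its small p in this contrast. With the slide as a fixed block, a fit that rests on slides 3 and 4 alone, the difference was 0.28. Cy5 of LOC491212 was well above background on 3 arrays before and 2 after ASIT, and that of NP883404, OR10A12 and LOC485294, the 3 named lower, on 1 before and 2 or 3 after ASIT. Most ratios of these probes in the patients come from spots not above background, and their differences are no measured folds. NP883404 went the other way, with 0, 0.45 and 1.64 before and 0.68, 2.01 and 2.47 after ASIT, a difference of -1.15 (SE 0.32, adjusted p = 0.321), which was 0.03 with normexp and loess. OR10A12 differed by -1.04 (adjusted p = 0.340) and was higher before ASIT in 0 of 7 dogs, and LOC485294 (OR52N4) differed by -0.85 (adjusted p = 0.343). COR56A6, the third named higher before ASIT, had no array after ASIT with a signal marked as above background, and its mean normalized Cy5 signal (log2 scale) was 6.601 before and 6.628 after ASIT, so that Cy5 alone was not higher before ASIT, and no fold is given.

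The list of regulated transcripts of the study was chosen on these samples and is no independent evidence of a direction. The members in it were LOC491671, OR4X2, LOC100687815 (OR51AA2) and OR13A1. LOC100687815 had log2 ratios of -1.20 to -0.05 in ctrl and -2.09 to -0.25 before ASIT, a difference of -1.102 (SE 0.32, limma adjusted p = 0.174). It was well above background on 10 of 22 arrays in each dye, so that most of its ratios come from spots not above background. The difference is no measured fold. OR13A1 had -1.18, -0.31 and 0.56 in ctrl, -0.72, 1.14 and 2.21 before ASIT and -1.06, 1.097 and 2.06 after ASIT, with differences from ctrl of 1.06 (adjusted p = 0.304) and 1.21 (adjusted p = 0.661). The groups overlapped for both. OR13A1 was well above background in Cy5 on 7 ctrl arrays, 7 before and 6 after ASIT.

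**Figure D5:**
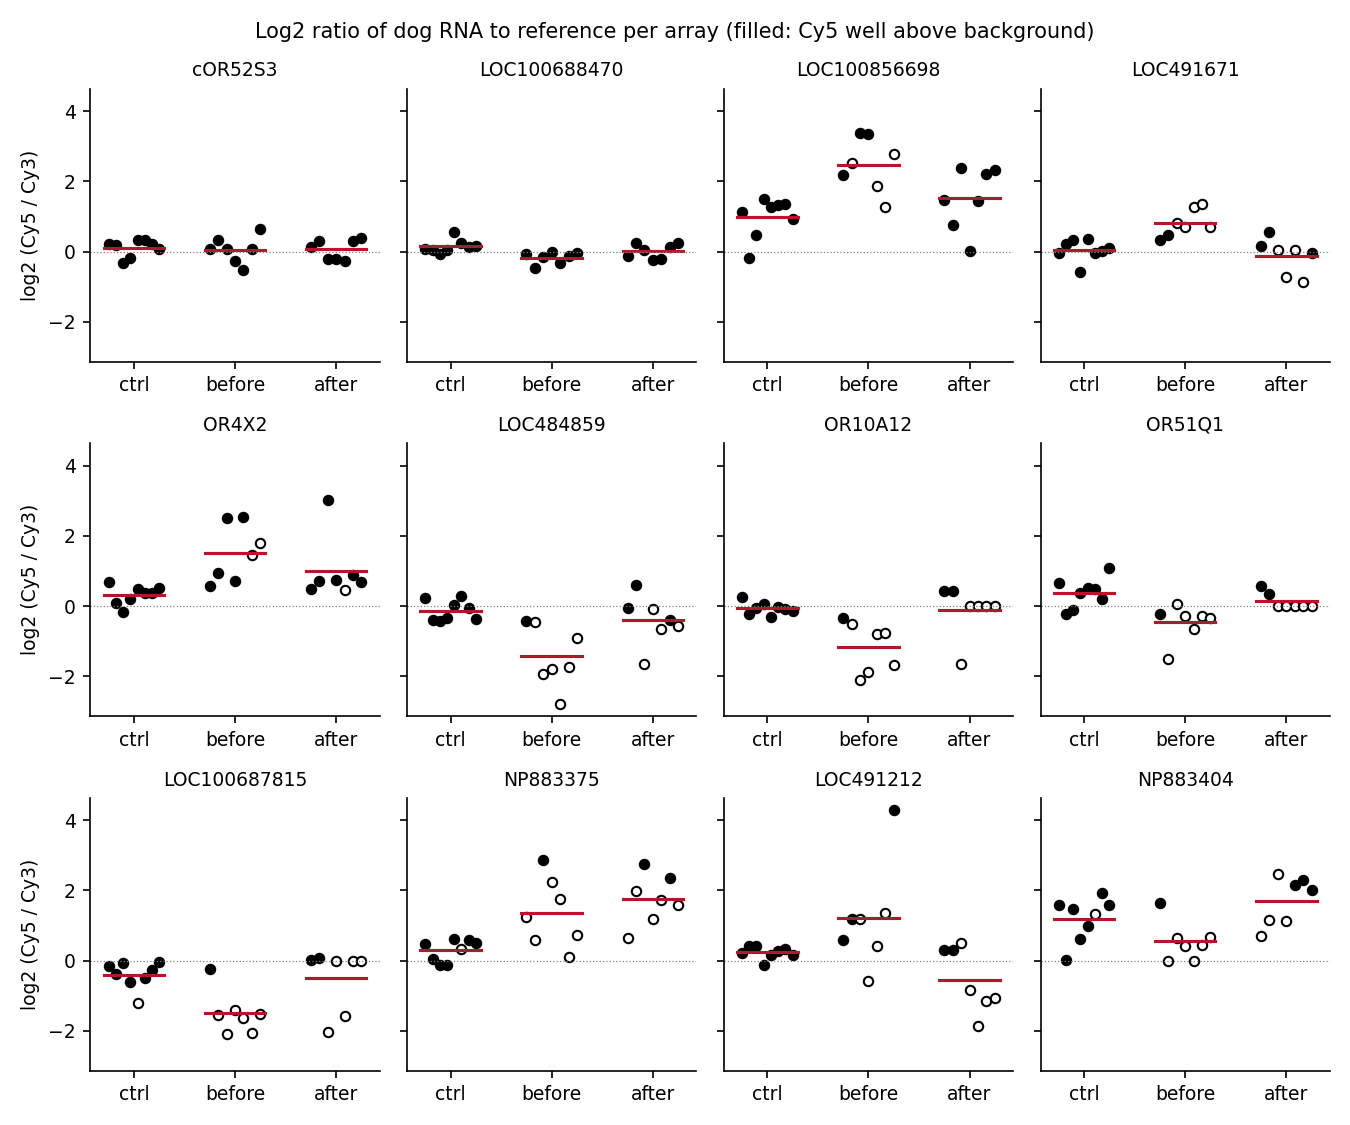
Log2 ratio of the dog's Cy5 to the reference's Cy3 (y axis) on each array for 12 named olfactory receptor probes, by group (x axis), with the group mean as a line, filled circles where Cy5 was well above background and open circles where it was not. Most patient values of OR10A12, LOC484859 and OR51Q1 are open circles, while cOR52S3 and LOC100688470 have filled circles throughout.

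Probes of one gene were read alike for some genes and differently for others. More than 1 probe was present for 15 genes. The probes of COR9S5 were detected in Cy5 on 1 and 22 arrays, the 3 of cOR56B2 on 2 to 22 and the 2 of CFOLF4 on 0 and 19. OR2A25, with 12 arrays for both of its probes, and OR4C3, with 0 for both, were read alike. For LOC100687372, both probes of which were tested, before ASIT minus ctrl was -0.39 by one and 0.39 by the other.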

How the data were processed

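Blood RNA of 22 samples was measured on Agilent Canine (V2) 4x44K two-colour arrays. Per the file headers, the authors' scanner output was made with Feature Extraction 10.10.1.1 (10.7.3.1 in the submitters' processing notes), which subtracted background and applied Lowess normalization. The authors deposited raw intensity and the log10 ratio of Cy5 to Cy3 per spot, and a series matrix of log10 ratios. The matrix equalled the scanner ratios on the 14 patient arrays, and correlated with them by r = 0.708 to 0.844 on the ctrl arrays.

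Ratios were converted to log2, 208 flagged spots were left out, and spots of one probe were averaged. Members, gene lists and alternatives were chosen with earlier results of these data known. Probes whose Cy5 signal passed the well-above-background flag on 7 or more arrays were fitted by limma 3.58.1 (R 4.3.3, files read with version 1.17.8 of data.table), tested on simulated data first, in one fit of 3 groups without a dog block, as the methods name none. Alternatives were other background corrections and normalizations, each channel alone, other filters, the methods' one-way test, slide or dog as a block, and fewer arrays. For single probes, group means were compared by 2-sided exact permutation tests. Probe likeness was found with BLAST 2.17.0. Python 3.11.15, numpy 2.4.6, pandas 2.3.3 and matplotlib 3.10.9 were used. No matrix column lacked a sample.

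Named were the 10 members of highest Cy5 signal over local background among those detected in both channels on all arrays, the 3 nearest the median of all members, the 3 with the smallest unadjusted p in each direction of each comparison, members in the study's list, and 5 receptors described outside the nose. Each gene was represented by 1 probe. Before and after arrays of one number come from the same dog, and their deviations from the group means correlated by r = -0.036 to 0.555 across probes. The number of arrays limits the precision. For a probe not above background on any array of a group, a fold bound was computed from Cy5 after normexp (offset 50), loess and Aquantile, but its own signals lay above the lowest detected signal on nearly all arrays of that group, so that no bound is given.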

Additional observations from a re-analysis of the deposited data

Results flagged for a closer look

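In all, 14 values of the receptor probes lay far from the other arrays of their group, by the gap to the nearest array relative to the range of the group. Chance alone flags about 1 in 20 groups, which is 3.3 of the 66 groups examined. Before ASIT, the array of dog 1, on slide 3, had 68.57% of receptor probes detected in Cy5 (next 28.89%), a median Cy5 signal of 2.282 times the local background (next 1.432) and a median log2 ratio of 0.1232 (next 0). On the array of dog 2 before ASIT, also on slide 3, the median Cy3 signal was 1.831 times the local background (next 2.149), and on that of dog 2 after ASIT the median log2 ratio was 0.3318 (next 0.0695). In ctrl, replicate 1 had a median Cy5 signal of 2.615 times the background (next 2.273) and replicate 5 an SD over receptor probes of 0.6445 (next 0.5196).

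Single probes made up the rest, each as a log2 ratio. LOC491671 was at -0.5868 in ctrl replicate 4. After ASIT, dog 3 had 3.007 for OR4X2 and -1.644 for OR10A12. LOC489317 was at 1.175 in dog 4 before ASIT and at -0.7443 in the same dog after ASIT. LOC491212 was at 4.274 in dog 7 before ASIT, and NP883404 at 1.643 in dog 1 before ASIT. The part of array, slide and dog in these values was not tested.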

How the results depend on the processing

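The main count of 0 called receptor probes was, with Cy5 alone, 172 before ASIT against ctrl (79.6%, against 45.1% of all tested probes), 136 after ASIT against ctrl (63.0%, against 41.0%) and 167 over the 3 groups (77.3%, against 46.4%). With no filter it was 1 before ASIT against ctrl (0.317%, against 0.0390% of all probes) and 1 over the 3 groups (0.317%, against 0.0573%), the probe cOR11J3. Chosen after seeing the data, Cy3 alone gave 194 (89.8%), 160 (74.1%), 1 (0.463%, before against after ASIT) and 195 (90.3%, 3 groups). Of all 38286 tested probes, 64.0%, 57.0%, 1 probe and 68.0% were called. Leaving out slide 3, likewise chosen later, gave 16 before ASIT against ctrl (7.41%, against 4.18% of all), 4 before against after ASIT (1.85%, against 0.559%) and 15 over the 3 groups (6.94%, against 3.51%). Leaving out each array in turn, also added later, gave 0 to 6 before ASIT against ctrl, 0 to 0 after ASIT against ctrl, 0 to 1 before against after ASIT and 0 to 1 over the 3 groups. It stayed at 0 with normexp and loess, the processed signals, the series matrix, the filter on both channels, the slide as a block, the replicate block of the dog, dogs 1 to 3 alone with that block, and the GC contrast.

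Median shares detected depended on the definition. Above the 95th percentile of negative controls they were 95.56% (ctrl), 71.11% (before) and 54.60% (after) in Cy5, and 90.0%, 62.86% and 50.48% in Cy3. As positive and significant signals they were 91.90%, 55.24% and 52.38% in Cy5, and 81.90%, 54.29% and 43.81% in Cy3. On slides 3 and 4, which hold both times, the medians were 26.03% before and 58.10% after ASIT in Cy5, and 25.08% and 48.89% in Cy3. These medians are of unlike dogs, 1 to 4 before and 1 to 3 after ASIT. Within dogs, the Cy5 share went from 68.57% to 58.1% in dog 1, from 28.89% to 60.95% in dog 2 and from 23.17% to 21.9% in dog 3. In Cy3 it went from 46.67% to 48.89%, from 32.38% to 54.29% and from 17.78% to 21.59%. Over the negative controls, the ctrl signal was 1.668. The median log2 ratio before ASIT was 0.1232 from processed signals and 0.1347 without zeros, and after ASIT 0.1868 without zeros. The SD over receptor probes was 0.1224, 0.1486 and 0.1363 (ctrl, before, after) with normexp, whose offset draws dim ratios to 0, and without zeros 1.034 before and 0.853 after ASIT. With normexp and loess, LOC483609 (after ASIT minus ctrl) turned to -0.0064 and NP883404 (before minus after ASIT) to 0.0324, and the other named differences shrank too, such as LOC100856698 from 1.5 to 0.0224, OR4X2 from 1.186 to 0.0249, LOC491212 from 1.755 to 0.125 and LOC484859 from -1.299 to -0.038. The cause of the sign changes was not tested. With the slide as a fixed block, before minus after ASIT was 0.278 for LOC491212 (from 1.755) and 0.307 for LOC491671 (from 0.92), both resting on slides 3 and 4 alone. The low signal over background limits these comparisons.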

Other observations

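A further 205 probes for 198 genes carry the name of an olfactory receptor but another description, mostly that of an uncharacterized protein, and were not among the members. In Cy5, 58.5% to 79.0% of them were well above background on the ctrl arrays (median 72.2%), 17.6% to 69.8% before ASIT (median 26.3%) and 27.8% to 57.6% after ASIT (median 29.8%). Of these probes, 28 were detected on all 22 arrays.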
